A study of Mus musculus with 4 samples.

Results

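Transcripts of the Nrf2 pathway, glutathione metabolism and antioxidant defence were examined in epidermal Langerhans cells that lacked the aryl hydrocarbon receptor (AhR) and in wild-type cells. The 39 genes were a set chosen by function: the stress sensor and its transcription factor, heme and glutathione enzymes, thioredoxins, peroxiredoxins, superoxide dismutases, metal-binding proteins and enzymes that supply NADPH. On the array 34 of them had at least 1 probe set assigned to that gene alone, out of 12393 genes measured in this way, and each gene was represented by its brightest probe set, averaged across the 4 arrays. Prdx1 and Ftl1 had only probe sets that the annotation also gives to another symbol, and Prdx5, Prdx6 and G6pdx had no probe set under their names, so these 5 were not analysed here.

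Langerhans cells are the dendritic cells of the epidermis. Ear epidermis was cultured for 16 hours, the mice having had no treatment, and cells were then sorted as living MHC class II-positive cells at above 95% purity per the labels. The groups were 2 arrays from mice deficient for AhR exon 2 and 2 arrays from wild-type C57BL/6 mice. The labels name the samples biological replicates but give neither age nor sex nor the number of mice behind each array, so p-values measure the spread between these samples. RNA was amplified before hybridisation to Affymetrix MOE430A arrays.

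Nrf2, encoded by Nfe2l2, is a transcription factor that Keap1 holds back by directing it to degradation. Oxidants and electrophiles modify Keap1, and Nrf2 then accumulates and drives genes with antioxidant response elements, among them Hmox1, Gclc, Gclm, Txnrd1, Srxn1 and several glutathione transferases. AhR is a ligand-activated transcription factor that senses xenobiotics and tryptophan derivatives, and its binding elements have been described at the mouse Nfe2l2 gene. Both pathways induce phase II detoxification enzymes.

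Values are log2 signals, and differences are AhR-deficient minus wild-type. The known AhR target Ahrr was 5.32 and 5.09 in the AhR-deficient arrays, against 8.26 and 8.38 in the wild-type pair, a difference of -3.11 (SE 0.11, n = 2 per genotype; limma, adjusted p = 0.0403). This call was lost with the replicate number as a block (limma, adjusted p = 0.895), with 16 added on the linear scale (0.0902) and with any array left out (0.198 to 0.469). Ahr itself was 8.55 and 8.60 against 7.61 and 8.23, but its probe sets are not known to lie in the deleted exon and check nothing. Array medians were 5.60 to 5.63. The defining Langerhans markers Epcam, between 10.71 and 11.38, and Cd207, between 11.00 and 12.06, were well above them, while of the 10 Langerhans genes listed Cdh1 was below the median on every array and Itgax, between 5.53 and 5.78, was near it. Of these 10 genes, 3 were higher without overlap (H2-Aa by 1.31, Cd74 by 0.93 and Itgax by 0.14) and Csf1r was lower (-1.05), none past adjustment in limma, and their summed linear signal was 18932 and 17613 against 13743 and 18192. The 3' minus 5' signal of the Actb control, which grows as RNA or its amplified copies shorten, was 2.34 and 2.61 in the AhR-deficient arrays, against 3.16 and 2.65 in the wild-type pair. For the Gapdh control it was 2.24 and 2.19 against 2.60 and 1.97. Wild-type replicate 1 was highest for both controls, but the lowest array was AhR-deficient replicate 1 for Actb and wild-type replicate 2 for Gapdh.

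The gene with the greatest difference was Nfe2l2 itself, whose signal in AhR-deficient cells lay below that in wild-type cells by 1.03 on the log2 scale. Genes known as Nrf2 targets lay on both sides. Of these, Txnrd1, Hmox1, Fth1, Gclc and Gsr had their highest signals in AhR-deficient cells, while Srxn1 had its lowest there and Gclm overlapped. Gsto1, Sod1, Gpx4, Pgd and Blvrb also had their lowest signals in AhR-deficient cells. None of the 34 genes passed the test: limma called 0 of them in either direction (Benjamini-Hochberg adjustment, threshold 0.05), while 0% of all 22626 probe sets were called higher and 0.0177% lower. At an unadjusted limma p under 0.05 there were 5 of the 34 genes (14.7%), against 6.54% of all genes. Adjusted p-values of the 34 genes ranged from 0.489 to 1. In 9 genes both AhR-deficient arrays lay above both wild-type arrays (26.5%, against 18.8% of all genes), and in 8 genes both lay below (23.5%, against 16.6%). The median difference was 0.03, beside 0.01 over all genes. With 2 arrays a genotype, an exact permutation test of a single gene cannot give a two-sided p below 0.333.

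Few genes of the set were dim, and dim genes differ less on the log2 scale. Only 4 of the 34 genes (11.8%) lay below the array median on all 4 arrays, against 38.0% of all genes. Among genes whose mean was at or above the median probe set mean, 5 of 29 set members (17.2%) had an unadjusted limma p under 0.05, against 8.59% of 7264 genes, and 15 of 29 (51.7%) had arrays that did not overlap, against 34.6%. In size, 29 of 34 genes differed by less than 0.5, and the median absolute difference was 0.19, against 0.0884 for all genes. The 95% interval of every gene but Nfe2l2, Hmox1, Txnrd1, Gsto1 and Gpx4 spanned 0.

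**Figure D1:**
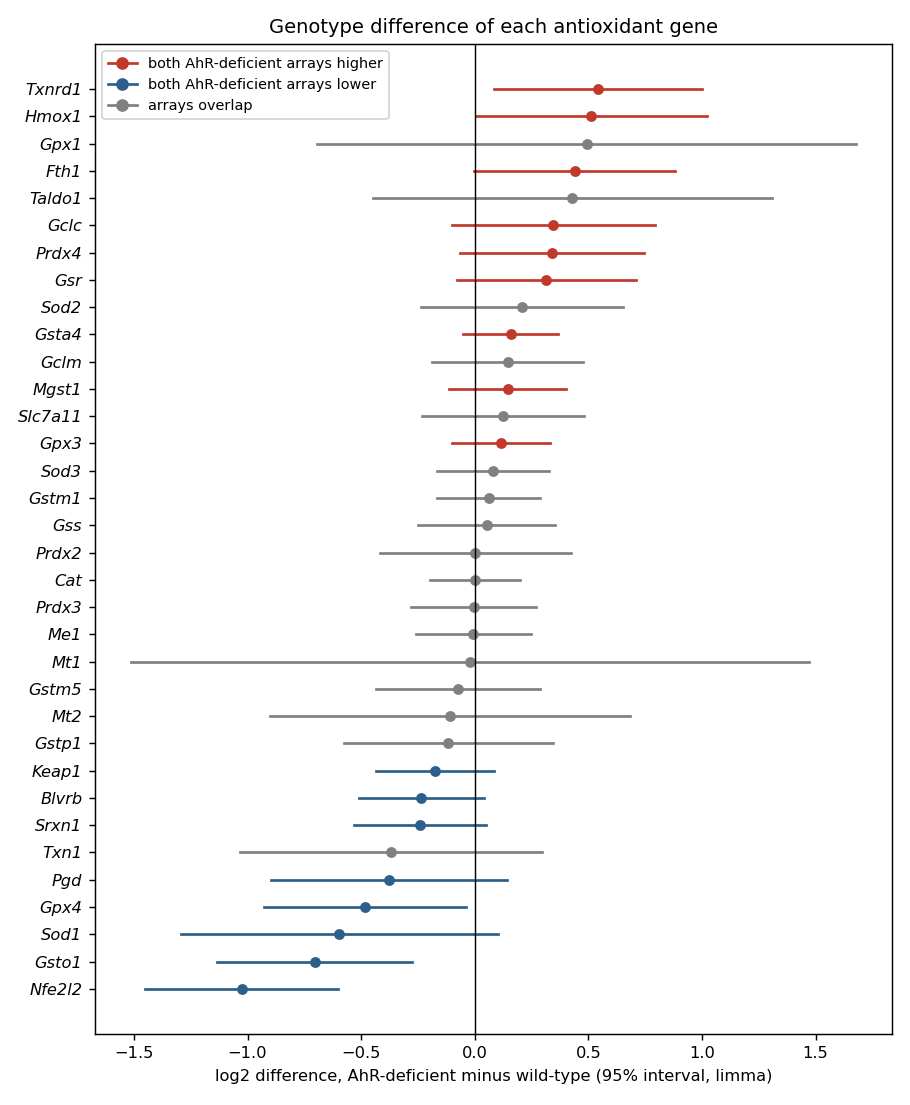
Log2 difference (AhR-deficient minus wild-type, x axis) of the 34 antioxidant genes (y axis, ordered by size), with limma's 95% interval from 2 arrays per genotype. Nfe2l2 lies lowest at -1.03 and Txnrd1 highest at 0.54, and colours show whether the arrays of the genotypes overlap.

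Among the regulators, Nfe2l2 had signals of 6.34 and 6.30 in the AhR-deficient arrays, against 7.15 and 7.55 in the wild-type pair. The AhR-deficient arrays nearly coincided, and both lay well below the wild-type arrays. The difference was -1.03 (SE 0.16, 95% interval -1.45 to -0.60), so that wild-type signal was 2.04 times that of AhR-deficient cells, and it did not pass adjustment over all probe sets (limma, adjusted p = 0.489). Leaving out any of the 4 arrays gave differences from -0.82 to -1.23. No other probe set measured the gene. Keap1, the adaptor that marks Nrf2 for degradation, was 6.49 and 6.37 against 6.68 and 6.54, a difference of -0.17 (SE 0.10; limma, adjusted p = 0.879). Its other probe set went the opposite way, with 5.30 and 5.07 against 5.01 and 4.86 (0.25, SE 0.12), and the mean of both probe sets differed by 0.04. The probe sets thus gave no common direction for Keap1.

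The sequence before the start of the genes with a difference of at least 0.5 and separate arrays is shown for its response elements, from RefSeq (GRCm38.p6), for the 4 of these 5 genes that matched the promoter table (Hmox1 did not). Each run is the 250 bases before the annotated start, written 5′ to 3′ on the gene's strand. Capitals mark the antioxidant response letters TGACNNNGC and the AhR core GCGTG, searched on both strands. The runs are from chr2:75704664-75704913, minus strand (Nfe2l2), chr10:82858956-82859205, plus strand (Txnrd1, the only of its 3 annotated starts with the antioxidant response letters), chr16:90220512-90220761, plus strand (Sod1), and chr19:47854723-47854972, plus strand (Gsto1).
Nfe2l2: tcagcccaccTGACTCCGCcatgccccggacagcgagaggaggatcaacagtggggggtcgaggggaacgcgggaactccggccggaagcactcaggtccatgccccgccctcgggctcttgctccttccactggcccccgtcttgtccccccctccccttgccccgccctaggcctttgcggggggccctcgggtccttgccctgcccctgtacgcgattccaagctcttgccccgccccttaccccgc
Txnrd1: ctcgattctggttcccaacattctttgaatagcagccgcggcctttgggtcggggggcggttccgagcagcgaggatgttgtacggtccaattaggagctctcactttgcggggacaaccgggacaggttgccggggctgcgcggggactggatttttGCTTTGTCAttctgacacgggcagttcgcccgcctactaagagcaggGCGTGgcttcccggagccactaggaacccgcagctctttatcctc
Sod1: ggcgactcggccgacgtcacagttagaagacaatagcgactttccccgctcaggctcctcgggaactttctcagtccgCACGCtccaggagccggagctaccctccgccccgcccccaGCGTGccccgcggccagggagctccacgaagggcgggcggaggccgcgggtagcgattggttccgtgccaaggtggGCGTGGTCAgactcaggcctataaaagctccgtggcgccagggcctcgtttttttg
Gsto1: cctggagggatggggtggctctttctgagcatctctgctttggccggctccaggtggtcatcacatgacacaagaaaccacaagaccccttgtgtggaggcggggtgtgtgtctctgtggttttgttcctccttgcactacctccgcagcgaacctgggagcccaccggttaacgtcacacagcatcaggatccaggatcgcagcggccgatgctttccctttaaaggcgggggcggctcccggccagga

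In Nfe2l2 the antioxidant response letters began 240 bases before the start, on the gene's own strand, and GCGTG was not among these 250 bases. In Txnrd1 they lay on the opposite strand from 92 to 84 bases before the start, with GCGTG from 45 to 41. Sod1 held GCGTG at 3 places, and the one nearest the start overlapped the antioxidant response letters on the opposite strand. The Gsto1 window held neither. Of the 39 genes, 33 matched the promoter table, among them Prdx1, Ftl1, Prdx5 and G6pdx, which had no probe set of their own. Over all starts of a gene, the antioxidant response letters were found in 9 of the 33 (27.3%), against 13.5% of 9888 genes with their own probe set on the array and 11.5% of all 27025 genes. The unmeasured Prdx1 and G6pdx are among these 9. GCGTG was found in 24 (72.7%), against 44.7% and 30.9%, and the longer form TNGCGTG, which contains it, in 2 (6.06%), against 6.98% and 4.76%. These are matches of letters in a short window, whose base composition differs between genes, and they say nothing about binding. Distant enhancers lie outside the window.

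The 2 heme degradation genes of the set lay on opposite sides. Of the further pathway genes taken up below, Blvra (-0.10, SE 0.12) and Hmox2 (0.00, SE 0.10) overlapped. Hmox1, the heme oxygenase that opens the heme ring to biliverdin, iron and carbon monoxide, was 6.66 and 6.15 in the AhR-deficient arrays, against 5.87 and 5.91 in the wild-type pair. Both AhR-deficient arrays lay above, replicate 1 by far the most, for a difference of 0.51 (SE 0.19; limma, adjusted p = 0.829), which was 0.26 without AhR-deficient replicate 1. Blvrb, which reduces biliverdin and flavins, was 6.92 and 6.89 against 7.04 and 7.24, a difference of -0.24 (SE 0.10; limma, adjusted p = 0.857).

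Genes of glutathione synthesis and reduction all had differences above 0, from 0.05 to 0.35. In 2 of 5 (40%) the AhR-deficient arrays were higher without overlap. Among all genes 18.8% were higher without overlap, and 35.4% did not overlap in either direction. The share in so few genes was not tested. Gclc, the catalytic subunit of the enzyme that limits glutathione synthesis, was 7.03 and 6.67 against 6.38 and 6.62. AhR-deficient replicate 2 was only just above wild-type replicate 2, and the difference of 0.35 (SE 0.17; limma, adjusted p = 0.865) was 0.17 without AhR-deficient replicate 1. Its other probe set ranged more widely, with 7.13 and 6.17 against 5.79 and 6.35, and overlapped. Gclm, the modifier subunit of the same enzyme, was 6.58 and 6.36 against 6.41 and 6.23 and overlapped as well (0.15, SE 0.12). Gsr, which regenerates reduced glutathione, was 7.99 and 7.67 against 7.42 and 7.61, a difference of 0.31 (SE 0.15; limma, adjusted p = 0.861). Again replicate 1 made most of this: it was 0.16 without AhR-deficient replicate 1. The second Gsr probe set, with 6.04 and 6.03 against 6.05 and 6.20, went slightly the other way (-0.10, SE 0.09). Gss, which joins glycine in the last step of synthesis, overlapped at 5.33 and 5.14 against 5.10 and 5.26, and its difference of 0.05 (SE 0.11) turned to -0.04 when AhR-deficient replicate 1 was left out and to -0.03 when wild-type replicate 1 was. The cystine transporter subunit Slc7a11 differed by 0.12 (SE 0.13) and also overlapped. It was highest in AhR-deficient replicate 1, at 5.73, with the other arrays between 5.41 and 5.46.

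**Figure D2:**
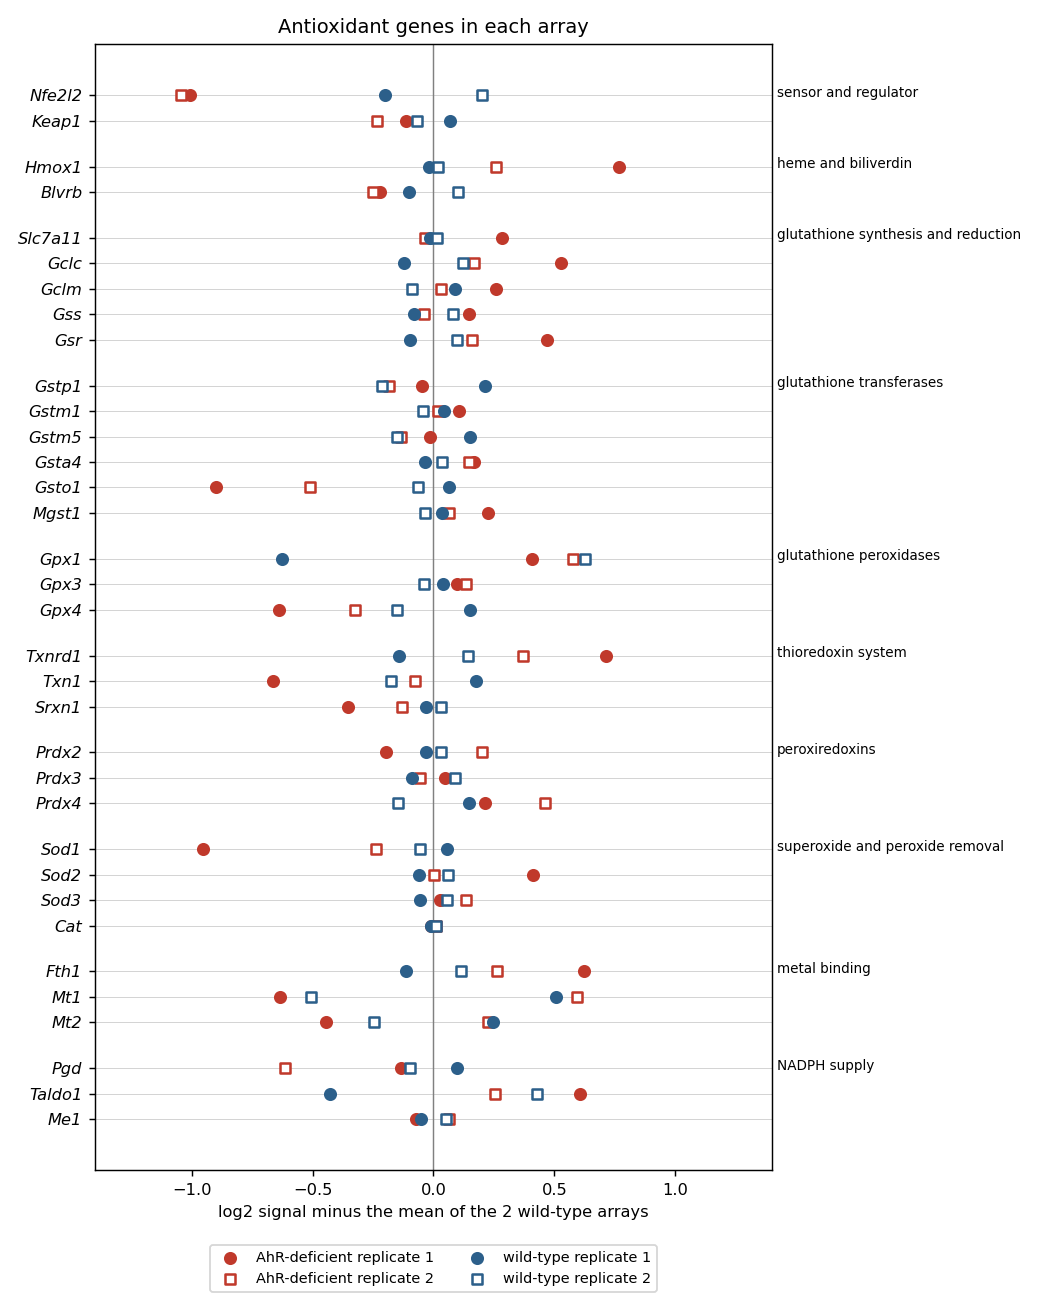
Log2 signal of each antioxidant gene in each of the 4 arrays (x axis, relative to the mean of the 2 wild-type arrays), grouped by role. Nfe2l2 and Gsto1 show AhR-deficient arrays apart from wild-type arrays, while in Mt1, Mt2 and Gpx1 arrays of the same genotype lie far apart.

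Among 6 glutathione transferases, Gsto1 stood out. It encodes an omega-class enzyme that acts as a thiol transferase and dehydroascorbate reductase, and was 10.41 and 10.80 in the AhR-deficient arrays, against 11.37 and 11.24 in the wild-type pair. No array of a genotype reached the other, and the difference was -0.70 (SE 0.16; limma, adjusted p = 0.646), or a wild-type signal 1.63 times that of AhR-deficient cells. A further probe set gave 10.55 and 10.69 against 11.22 and 11.35, which is nearly the same difference, -0.67 (SE 0.10; limma, adjusted p = 0.444). Both probe sets thus read the same way, and leaving out an array gave -0.51 to -0.90 for the first. The other transferases differed by less than 0.2. Gsta4, which conjugates the lipid peroxidation product hydroxynonenal, was 5.62 and 5.60 against 5.42 and 5.48 (0.16, SE 0.08; limma, adjusted p = 0.867). Mgst1, the membrane-bound form, also had separate arrays, but at 4.37 and 4.21 against 4.18 and 4.11 (0.15, SE 0.09) it lay below the 25th percentile of every array. Gstp1, Gstm1 and Gstm5 overlapped, with differences of -0.12 (SE 0.17), 0.06 (SE 0.08) and -0.07 (SE 0.13).

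The glutathione peroxidases went different ways. Gpx4, which reduces lipid hydroperoxides in membranes and protects against ferroptosis, was 8.20 and 8.51 in the AhR-deficient arrays, against 8.99 and 8.69 in the wild-type pair, a difference of -0.48 (SE 0.16; limma, adjusted p = 0.811). Its second probe set, at 7.93 and 8.49 against 8.81 and 8.56, read alike (-0.47, SE 0.22), with AhR-deficient replicate 2 close to wild-type replicate 2. Gpx1, the abundant cytosolic enzyme that removes hydrogen peroxide, was 11.49 and 11.66 against 10.46 and 11.71. Here a single array set the value: wild-type replicate 1 was low, and the difference of 0.49 (SE 0.44; limma, adjusted p = 0.912) turned to -0.13 without it. Gpx3, a secreted peroxidase, was 5.73 and 5.77 against 5.67 and 5.59 (0.11, SE 0.08).

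In the thioredoxin system, Txnrd1, the selenoprotein reductase that keeps cytosolic thioredoxin active, was 9.08 and 8.74 in the AhR-deficient arrays, against 8.22 and 8.51 in the wild-type pair. The arrays did not overlap, and the difference of 0.54 (SE 0.17; limma, adjusted p = 0.773) was the most positive in the set. Its other probe sets overlapped and differed by 0.14 (SE 0.11) and -0.08 (SE 0.09), and the mean over the 3 probe sets by 0.20. Txn1, thioredoxin itself, was 11.52 and 12.11 against 12.36 and 12.01, which overlapped (-0.37, SE 0.25). Srxn1, the sulfiredoxin that repairs overoxidised peroxiredoxins and a known Nrf2 target, was 6.90 and 7.12 against 7.21 and 7.28 (-0.24, SE 0.11; limma, adjusted p = 0.859). All 4 of its probe sets had differences below 0, though the other 3 overlapped and lay between -0.02 and -0.09.

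Of the 6 peroxiredoxins listed, 3 were measured. Prdx4, the form of the endoplasmic reticulum, was 7.10 and 7.35 in the AhR-deficient arrays, against 7.03 and 6.74 in the wild-type pair (0.34, SE 0.15; limma, adjusted p = 0.859). The gap between genotypes was narrow, 7.10 against 7.03, and its other probe sets differed by 0.00 (SE 0.10) and -0.05 (SE 0.12). Prdx2 and the mitochondrial Prdx3 differed by 0.00 (SE 0.16) and 0.00 (SE 0.10). Prdx3 was 7.60 and 7.49 against 7.46 and 7.64, with a 95% interval from -0.28 to 0.27.

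Sod1, the cytosolic copper-zinc superoxide dismutase, was 8.28 and 8.99 in the AhR-deficient arrays, against 9.28 and 9.17 in the wild-type pair. Both AhR-deficient arrays lay below, but replicate 2 by little, and the difference of -0.60 (SE 0.26; limma, adjusted p = 0.857) was -0.24 without AhR-deficient replicate 1. Its second probe set also had separate arrays, with 6.54 and 6.26 against 6.72 and 6.63 (-0.27, SE 0.12). Cat, which encodes catalase, was 8.70 and 8.72 in the AhR-deficient arrays, against 8.70 and 8.72 in the wild-type pair. Its difference was 0.00 (SE 0.07), with a 95% interval from -0.20 to 0.20. Sod2, the mitochondrial enzyme, and Sod3, the extracellular one, overlapped and differed by 0.21 (SE 0.16) and 0.08 (SE 0.09).

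Fth1, the heavy chain of the iron store ferritin, was 10.75 and 10.39 in the AhR-deficient arrays, against 10.01 and 10.24 in the wild-type pair. The arrays were separate for this probe set (0.44, SE 0.16; limma, adjusted p = 0.834) and for the other (0.39, SE 0.21). Without AhR-deficient replicate 1 the first was 0.26. The metallothioneins Mt1 and Mt2, small cysteine-rich proteins that bind zinc and copper, had no genotype order. Mt1 was 6.64 and 7.87 in the AhR-deficient arrays, against 7.78 and 6.77 in the wild-type pair, and Mt2 was 6.28 and 6.95 against 6.97 and 6.48. In both, AhR-deficient replicate 2 and wild-type replicate 1 were high and the other arrays low. The gap between arrays of a genotype reached 1.23 for Mt1, while its genotype difference was -0.02 (SE 0.55), and that of Mt2 was -0.11 (SE 0.29). These Mt1 values are from a probe set ending in _s_at. The other Mt1 probe set lay below the median on every array, with gaps of 0.12 in AhR-deficient and 0.30 in wild-type cells.

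Mt1 and Mt2 lie side by side with 0 genes listed between them, and both are classical targets of the zinc sensor Mtf1, which binds metal response elements. Of the further pathway genes below, Atox1 was also high in AhR-deficient replicate 2 and wild-type replicate 1. Its gaps were 1.09 in AhR-deficient and 0.97 in wild-type cells. Slc30a1 was low in those arrays, with gaps of 0.08 and 0.17, and Mtf1 had neither order. The cause of these orders was not tested. The 250 bases before the Mt2 start (chr8:94172368-94172617, plus strand, GRCm38.p6, RefSeq) are shown because Mt2 and the _s_at probe set of Mt1 varied together. Capitals mark the metal response core, TGCACNC or TGCGCNC on either strand.
Mt2: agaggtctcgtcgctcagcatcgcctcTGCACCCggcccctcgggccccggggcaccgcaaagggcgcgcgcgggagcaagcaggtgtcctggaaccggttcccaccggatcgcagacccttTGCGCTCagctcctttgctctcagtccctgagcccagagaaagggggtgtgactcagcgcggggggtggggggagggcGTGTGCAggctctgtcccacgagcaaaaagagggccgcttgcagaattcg

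The core was found at 3 places in Mt2, on the gene's strand from 223 to 217 and from 128 to 122 bases before the start, and on the opposite strand from 50 to 44. This motif was searched after the values had been seen, and the Mt1 window held it at 1 place. It was found in 9 of the 33 genes of the set (27.3%), against 31.6% of the 9888 array genes and 23.8% of all genes. In the NADPH-supplying enzymes no genotype stood apart throughout. Pgd, of the pentose phosphate pathway, was 9.37 and 8.89 in the AhR-deficient arrays, against 9.60 and 9.41 in the wild-type pair (-0.38, SE 0.19; limma, adjusted p = 0.870). Of its 4 probe sets, 3 had both AhR-deficient arrays below, with differences from -0.29 to -0.41, and these 3 are of the kind whose probes can match other transcripts. The fourth overlapped (-0.06, SE 0.18). Taldo1, the transaldolase of the same pathway, was 9.21 and 8.86 against 8.18 and 9.04. As with Gpx1, wild-type replicate 1 was low, and the difference of 0.43 (SE 0.32; limma, adjusted p = 0.904) was 0.00 without it. Me1, the cytosolic malic enzyme, was 6.45 and 6.59 against 6.47 and 6.58, a difference of -0.01 (SE 0.09).

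Of the 20 genes with several probe sets, 10 had the same sign in all of them and 10 did not, counting Cat, where a probe set was at 0.00, with the latter. Gsto1, Gpx4, Sod1 and Fth1 were the genes in which every probe set had separate arrays on the same side. Gpx4 and Fth1 had only probe sets ending in _s_at, _x_at or _a_at. In Keap1 and Gsr, probe sets with separate arrays lay on opposite sides.

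**Figure D3:**
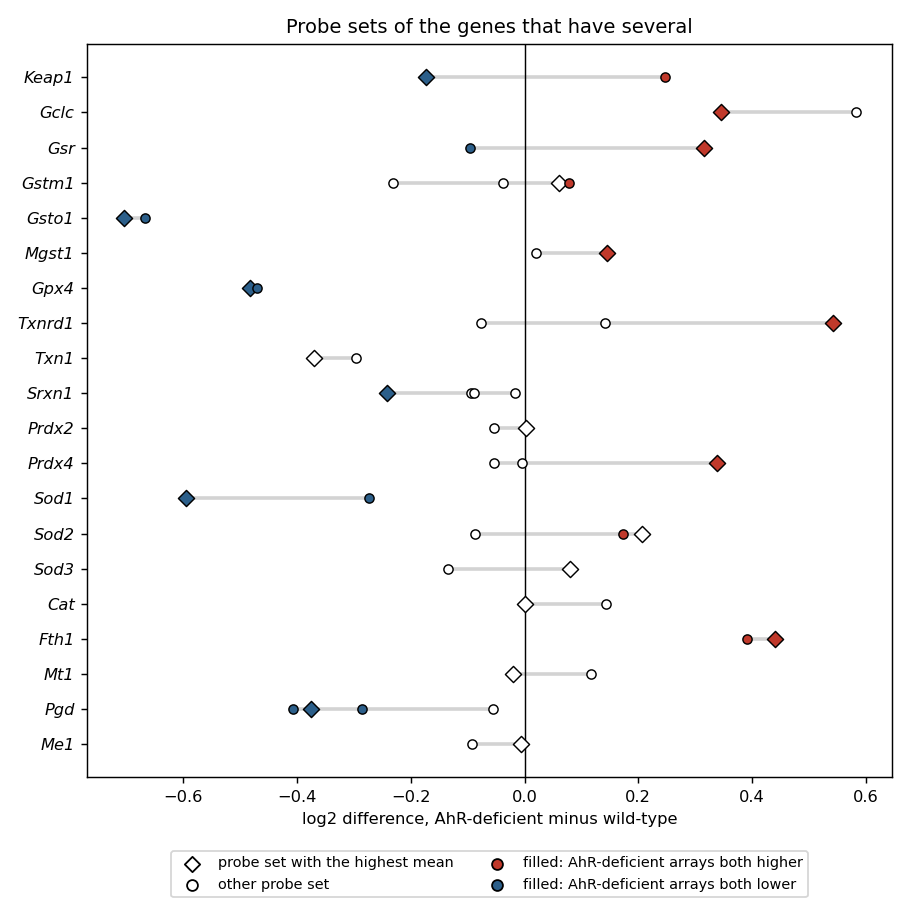
Log2 difference (AhR-deficient minus wild-type, x axis) of every probe set of the 20 antioxidant genes that have several. The probe sets of Gsto1 (-0.70 and -0.67) and Gpx4 (-0.48 and -0.47) coincide, and those of Keap1 (-0.17 and 0.25) lie on either side of 0.

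Much of the variation lay within genotypes. In 21 of the 34 genes (61.8%) the gap between arrays of a genotype exceeded the difference between genotypes, against 76.5% of all genes. The widest gaps were 1.25 for Gpx1, 1.23 for Mt1, 0.85 for Taldo1 and 0.71 for Sod1. In 9 genes AhR-deficient replicate 1 was the highest and wild-type replicate 1 the lowest array (26.5%, against 13.3% of all genes), among them Hmox1, Gclc, Gsr, Txnrd1, Fth1 and Taldo1. In 5 genes, Txn1, Mt2, Sod1, Gsto1 and Gpx4, the order was the reverse (14.7%, against 11.6%). The same arrays formed the extremes of the Actb 3' minus 5' signal, 2.34 and 3.16, but not of the Gapdh signal, which was lowest in wild-type replicate 2 (1.97) and highest in wild-type replicate 1 (2.60). The part of RNA integrity or labelling in these genes was not tested. Nfe2l2 had another order, with its lowest value in AhR-deficient replicate 2 and its highest in wild-type replicate 2.

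**Figure D4:**
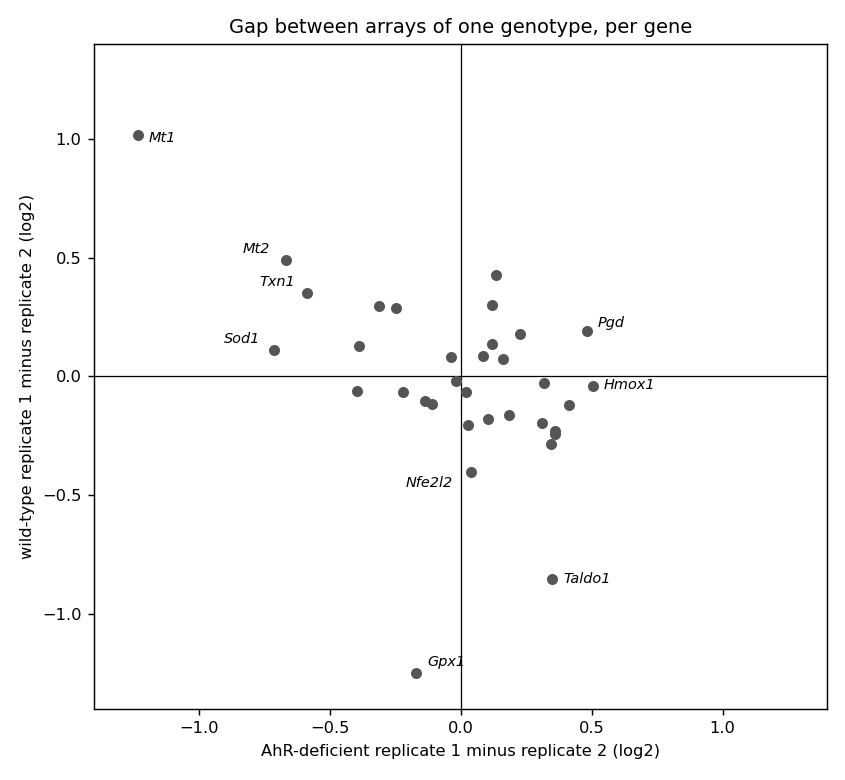
Replicate 1 minus replicate 2 in AhR-deficient cells (x axis) and in wild-type cells (y axis), log2, with a point for each of the 34 antioxidant genes. Mt1 (-1.23 and 1.02) and Mt2 (-0.67 and 0.49) lie at the upper left, Gpx1 (-0.17 and -1.25) and Taldo1 (0.35 and -0.85) at the bottom.

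Further genes of the pathway were taken from a list of 93 symbols chosen for function. It gave Selenow, Selenop and Selenof under older symbols as well, and 81 genes were measured. None passed adjustment in limma (0 higher and 0 lower, smallest adjusted p 0.674), and 7 (8.64%) had an unadjusted limma p under 0.05, against 6.54% of all genes. Both AhR-deficient arrays were above in 14 (17.3%) and below in 17 (21.0%), with a median of -0.02. These shares lie near those of all genes, 18.8% and 16.6%. With separate arrays, 2 differed by at least 0.5, both with higher AhR-deficient signals. Tkt, the transketolase of the pentose phosphate pathway, was 10.18 and 9.73 against 9.06 and 9.39 (0.73, SE 0.20; limma, adjusted p = 0.715). Slc3a2, the heavy chain that carries Slc7a11 and other amino acid transporters to the surface, was 9.16 and 9.04 against 8.38 and 8.72 (0.55, SE 0.14; limma, adjusted p = 0.710).

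The partners and regulators of Nrf2 were all on the positive side, with 9 measured genes between 0.03 and 0.46. Of them 4 (44.4%) had higher AhR-deficient arrays without overlap, against 18.8% of all genes, and the other 5 overlapped. AhR-deficient replicate 1 was highest and wild-type replicate 1 lowest in 13.3% of all genes. This order also held in Maff, Bach1, Gsk3b, Cul3, Nfe2l1, Sqstm1 and Mafk, but not in Mafg and Crebbp. After their values were seen, Maff and Bach1 were picked out. Maff, a small Maf protein that pairs with Nrf2 on DNA, was 6.92 and 6.76 in the AhR-deficient arrays, against 6.13 and 6.62 in the wild-type pair (0.46, SE 0.19). Bach1, which represses Hmox1 and competes with Nrf2 for its sites, was 9.15 and 8.89 against 8.41 and 8.79 (0.42, SE 0.17). Both had an adjusted p of 0.857 in limma, with the highest value in AhR-deficient replicate 1 and the lowest in wild-type replicate 1. With the mean over probe sets Bach1 differed by 0.22. In the transporter and conjugation group, all 11 measured genes overlapped, where 35.4% of all genes did not. Among thioredoxin-related and methionine repair genes, 2 of 15 (13.3%) lay above and 5 (33.3%) below, against 18.8% and 16.6% of all genes. Park7, a sensor of oxidative stress, was 10.60 and 10.57 against 10.84 and 10.87 (-0.27, SE 0.07; limma, adjusted p = 0.718), and Sesn3, a sestrin, 6.20 and 6.34 against 6.86 and 6.64 (-0.48, SE 0.11; limma, adjusted p = 0.674). These too were picked out after their values were seen.

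**Figure D5:**
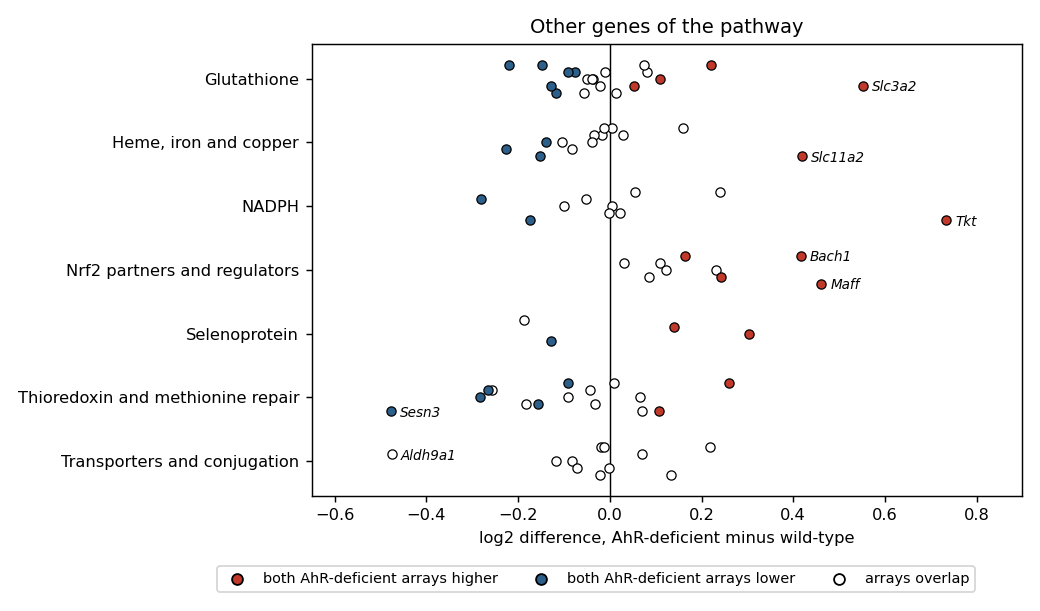
Log2 difference (AhR-deficient minus wild-type, x axis) of 81 further pathway genes in 7 functional groups (y axis), with filled points where the arrays of the genotypes do not overlap. Tkt at 0.73 and Slc3a2 at 0.55 lie farthest right, and genes named in the plot differ by at least 0.4.

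Markers of other cells moved beside these values, and in bulk RNA fewer cells of a type cannot be told apart from less RNA per cell. Macrophage and neutrophil markers, some of which Langerhans cells also express, were higher without overlap in 5 of 8 genes and lower in 1. For this and the following marker lists, the shares among all genes were 18.8% higher and 16.6% lower. Their summed linear signal was 1468 and 1055 in the AhR-deficient arrays, against 642 and 849 in the wild-type pair, the same order of arrays as in Hmox1 and Fth1. Of the defining markers, C1qa was 8.11 and 7.59 against 6.25 and 7.24, and S100a8, a neutrophil gene, lay below the 25th percentile on all arrays. The lower gene was Adgre1, a macrophage marker, at 6.92 and 5.84 against 7.11 and 7.43. For keratinocytes, 8 of 18 markers were higher and 1 lower without overlap, and the summed signal was 1272 in AhR-deficient replicate 1 against 713 in replicate 2 and 635 and 680 in wild-type arrays. Defining keratinocyte genes were 6.51 and 6.32 against 6.09 and 6.21 for Krt5 and 5.55 and 4.96 against 4.60 and 4.76 for Krt14. T cell markers were lower without overlap in 4 of 7 genes, with sums of 419 and 460 against 545 and 500. Cd3g was 4.52 and 4.26 against 5.80 and 5.50, and Cd3e overlapped. Of the stromal markers 2 of 8 were higher and 4 lower without overlap. Stromal sums were 374 and 394 in the AhR-deficient arrays against 409 and 395, and mast cell sums 180 and 181 against 212 and 199. Of 4 mast cell markers 1 was higher (Mcpt4, 0.18, SE 0.09) and 1 lower (Kit, -0.64, SE 0.12) without overlap. Sums of melanocyte and erythroid markers ran from 222 to 232 and 78 to 79. None of these marker genes passed adjustment in limma, and the part of other cells in the antioxidant values was not tested.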

How the data were processed

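Total RNA of sorted Langerhans cells was profiled on 4 Affymetrix arrays, 2 per genotype, grouped by the sample titles. The authors deposited log2 expression values per probe set. Per the submitters' processing notes, affy and RMA were used; RMA corrects background, normalises by quantiles and summarises probes. The sources used here give no version, annotation or genome build. These values were used without further scaling.

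Of 22690 probe sets, 64 controls were left out. In the platform annotation 20380 probe sets carry 1 symbol, 691 carry several and 1555 carry none. Entrez identifiers of 20351 matched RefSeq genes (GRCm38.p6), with 0 symbols changed. The genotype difference was fitted by limma (version 3.58.1, R 4.3.3; lmFit, then eBayes; two-sided; residual degrees of freedom 2, prior 2.27) over 22626 probe sets, with Benjamini-Hochberg adjustment at 0.05. SE denotes the moderated standard error. Precision is limited by the number of arrays: the median SE was 0.10 over all genes and 0.15 over the set. The fit was tested on simulated data with planted changes larger than any difference in the set. That test does not bear on smaller differences.

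The genes, lists and tests were chosen with earlier results of these data known. Array values were given for Nfe2l2, Keap1, genes with separate arrays and a difference of at least 0.5, genes with opposed probe sets, and in each role the gene with the greatest difference and that with the smallest SE; the remaining array values were chosen after they were seen. Of the further pathway genes, up to 12 with separate arrays and at least 0.5 were named. Motifs were searched on both strands of the 250 bases before each RefSeq start. The alternatives tried were the replicate number as a block, a trended or robust eBayes, dim probe sets left out, quantile normalisation again, an offset of 16, other choices of probe set, and leaving out each array.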

Additional observations from a re-analysis of the deposited data

How the results depend on the processing

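No gene of the set passed adjustment in limma under any of the 13 alternatives. The count of probe sets called lower, 4 in the main setting, was 7 with an eBayes trend, which also called 1 higher. It was 2 without dim probe sets, 2 without probe sets ending in _s_at, _x_at or _a_at, and 0 with 16 added on the linear scale. Leaving out an array left 0 in each case. With the replicate number as a replicate block 0 were lower; the labels do not say that the numbers pair samples, and deviations of same-numbered arrays correlated at -0.309. The crossed pairing, added after the data were seen, also called 0 higher and 0 lower. Ahrr, among the 4, had an adjusted p of 0.0157 to 0.895 over the alternatives. Separate arrays with higher AhR-deficient values were found in 5 of 27 genes, not 9 of 34, without the _s_at, _x_at and _a_at probe sets. With 1 array left out separation is easier: 13 to 16 genes were higher and 9 to 13 lower, while 32.4% to 38.9% and 29.4% to 34.6% of all genes were. The median difference of 0.0278 was 0 without dim probe sets, 0.0613 without the _s_at, _x_at and _a_at probe sets, and 0.0249 to 0.0508 with an array left out.

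Some differences turned, Gpx1 (0.49) being the greatest of them. With the mean over probe sets Keap1 was 0.0366, Gstm1 -0.0322, Sod3 -0.0278 and Mt1 0.0487, and Mt1 was 0.117 without its _s_at probe set. With an array left out Gpx1 ranged from -0.133 to 1.12, Gss from -0.0393 to 0.145, Gstm5 from -0.226 to 0.0764, Gstp1 from -0.329 to 0.0969, Me1 from -0.0742 to 0.0624, Mt1 from -0.635 to 0.596, Mt2 from -0.443 to 0.226 and Slc7a11 from -0.0344 to 0.284. Cat, Prdx2 and Prdx3, at 0.00, have no direction to turn. The other genes of the set, and the 6 further pathway genes with array values, kept their direction under the alternatives that measured them. Nfe2l2 ranged from -0.824 to -1.23, with adjusted limma p from 0.336 to 1. The causes were not tested.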
